A study of Mus musculus with 2 samples.

Results

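Svs2, Svs3a, Svs3b, Svs4, Svs5, Svs6 and Sva encode secretory proteins of the mouse seminal vesicle, and they are 7 of the 28000 features counted in each of 2 single-cell RNA-seq libraries of prostate tumour tissue. The genes were picked by name with earlier results of these data known. Svs2 and Svs5 had ranked among the genes with the lowest ratio of hMETtg-positive over hMETtg-negative DoubleTg epithelial cells, so the levels below are a description and carry no test. The RNA of these 7 genes came almost wholly from small groups of cells, 96 cells in DoubleTg and 554 cells in TripleTg. These groups were named from other genes of the seminal vesicle, so the presence of such genes in them is no finding. Svs2, Svs4 and Svs5 were abundant in these cells of both libraries. Svs3a, Svs3b, Svs6 and Sva were close to absent from DoubleTg, and in TripleTg they lay mainly in a cluster of 106 of the 554 cells.

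Seminal vesicles are glands that grow from the Wolffian duct, while the prostate buds from the urogenital sinus, and both empty into the urethra at the base of the prostate. Their androgen-dependent epithelium secretes most of the volume of the semen, which in rodents sets into a copulatory plug when transglutaminase from the prostate links the secreted proteins to each other. Svs2 and the Svs3 proteins are substrates of that enzyme, Svs4, Svs5 and Svs6 are small secreted proteins of the same family, and Sva binds sperm and lowers their motility.

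Both genotypes carried a human HGF transgene (hHGFtg) and 1 copy of a human MET transgene (hMETtg) in the H11 locus that a Cre recombinase under the probasin promoter (PBCre4) activates in prostate epithelium. DoubleTg (hHGFtg:H11hMET/+:PBCre4, labelled prostatic adenocarcinoma) carried no further allele, and TripleTg (hHGFtg:H11hMET/+:Ctnnb1L(Ex3)/+:PBCre4, labelled prostatic carcinoma) had in addition 1 Ctnnb1 allele that loses an exon to PBCre4 and then yields a stabilised β-catenin. The mice were of a mixed C57BL/6 and C3H SCID background, the labelled tissue was prostate in both, and the age and number of the animals behind each library are not given in the sources used here. There was 1 library per genotype, and how much seminal vesicle lay in each dissection cannot be told apart from genotype.

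Cells were kept if they had more than 200 but fewer than 7000 detected genes and if mitochondrial genes gave less than 15% of their UMIs. The DoubleTg library held 10598 cells with 256880958 UMIs, and the TripleTg library 9492 cells with 229655259 UMIs. A UMI (unique molecular identifier) marks 1 captured RNA molecule, so counts are per molecule and need no scaling by gene length. The median depth was 16761 UMIs per cell in DoubleTg and 20097 UMIs in TripleTg. Intervals are exact 95% intervals and cover counting error only. Both libraries held 29 identical cell barcodes, of which 0 in DoubleTg and 1 in TripleTg lay in a seminal vesicle-like cluster. Cell classes were rebuilt from marker genes and may differ from those of the study. Of the genes that define the labelled tissue, Sbp, Msmb and Pbsn stood at 59022, 5179 and 1612 CPM (UMIs per 1000000 UMIs of the class) in DoubleTg luminal-like cells and at 0.262, 0 and 6.89 CPM in those of TripleTg, where Sbp and Msmb were thus all but absent.

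On the genome 6 of the members share a locus. Svs2, Svs3b, Svs4, Svs3a, Svs6 and Svs5 lie in that order on chromosome 2 of GRCm38 (GENCODE release M21), between Svs2 at chr2:164235929-164238466 on the minus strand and Svs5 at chr2:164332740-164334396 on the plus strand, a span of 98.5 kb. Svs3b (chr2:164254363-164256640) and Svs4 (chr2:164275952-164278459) are on the minus strand, and Svs3a (chr2:164289268-164291500) and Svs6 (chr2:164316751-164318453) are on the plus strand. Sva lies apart, at chr6:42038394-42042851 on the plus strand. The 250 bases before the RefSeq start were compared (GRCm38.p6, with an entry for all 7 members). The pairs that resemble each other are printed below. Svs3a and Svs3b were both close to absent from DoubleTg, whereas of Svs5 and Svs6 only Svs6 was. Capitals mark TATAAA on the gene's strand and AGAACA or its complement TGTTCT, the hexamer of the steroid receptor element.
Svs3a, chr2:164289017-164289266, plus strand: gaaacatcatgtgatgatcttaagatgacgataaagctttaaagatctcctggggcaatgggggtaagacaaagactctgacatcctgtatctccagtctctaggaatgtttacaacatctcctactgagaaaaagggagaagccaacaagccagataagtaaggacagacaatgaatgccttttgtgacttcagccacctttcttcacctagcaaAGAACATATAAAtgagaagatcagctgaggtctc
Svs3b, chr2:164256644-164256893, minus strand: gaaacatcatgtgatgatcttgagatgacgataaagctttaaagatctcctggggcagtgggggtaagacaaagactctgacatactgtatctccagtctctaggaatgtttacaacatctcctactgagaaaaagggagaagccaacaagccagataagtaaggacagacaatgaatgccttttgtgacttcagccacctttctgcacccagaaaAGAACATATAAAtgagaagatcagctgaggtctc
Svs5, chr2:164332515-164332764, plus strand: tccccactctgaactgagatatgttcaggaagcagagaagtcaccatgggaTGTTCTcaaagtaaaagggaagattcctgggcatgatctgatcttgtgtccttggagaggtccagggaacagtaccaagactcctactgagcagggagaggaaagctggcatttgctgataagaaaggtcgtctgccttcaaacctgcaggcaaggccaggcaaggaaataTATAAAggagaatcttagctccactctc
Svs6, chr2:164316501-164316750, plus strand: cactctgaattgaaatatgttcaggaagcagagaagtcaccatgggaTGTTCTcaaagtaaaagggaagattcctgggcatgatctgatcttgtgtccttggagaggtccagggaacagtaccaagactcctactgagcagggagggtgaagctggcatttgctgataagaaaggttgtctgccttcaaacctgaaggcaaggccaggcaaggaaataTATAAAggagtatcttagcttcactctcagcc

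The Svs3a and Svs3b stretches were identical at 244 of 250 positions (97.6%), and those of Svs5 and Svs6 at 237 of 254 aligned positions (93.3%). The other 19 pairs ranged from 45.04% to 60.7%. TATAAA began 28 bases before the start in Svs3a, Svs3b, Svs4 and Svs5 and 32 bases before it in Svs6, so 5 of the 7 members held it in the last 50 bases, as did 2.88% of 27025 mouse promoters. The hexamer was present in 5 of the 7 members, in Svs3a, Svs3b, Svs5, Svs6 and Sva, against 16.2% of all promoters of this length. In Svs3a and Svs3b it lay directly before TATAAA without overlapping it, and in Svs5 and Svs6 it lay 199 and 203 bases before the start. Within the last 400 bases of the transcripts, where 3′ libraries are read, the longest run shared by any pair was 29 bases, between Svs3a and Svs3b, and no other pair shared more than 16.

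Summed over all kept cells, the members made up 1755479 UMIs or 0.683% of the DoubleTg library and 12229923 UMIs or 5.33% of the TripleTg library. Svs2 stood at 3928 CPM from 1009122 UMIs in DoubleTg and at 4026 CPM from 924679 UMIs in TripleTg. On the log2 scale this was a ratio, TripleTg over DoubleTg, of 0.04 (0.03 to 0.04), against a median of −0.11 over all genes. Svs2 was thus at almost the same level in both libraries. Svs5 stood at 2694 CPM in DoubleTg and 22359 CPM in TripleTg, a log2 ratio of 3.05 (3.05 to 3.06). Svs4 stood at 210.1 CPM and 23935 CPM, a log2 ratio of 6.83 (6.82 to 6.84). These 2 genes took the highest places in TripleTg, whereas Svs2 did in DoubleTg.

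The 4 remaining members were close to absent from DoubleTg. Svs6 had 188 UMIs there against 389164 in TripleTg, a log2 ratio of 11.18 (10.97 to 11.39). Svs3b had 86 UMIs against 63896, a log2 ratio of 9.70 (9.39 to 10.02), and Svs3a 16 UMIs against 123589, a log2 ratio of 13.08 (12.38 to 13.88). Sva had 0 UMIs in DoubleTg against 96836 in TripleTg, at least 36105-fold higher when the DoubleTg library was set to 3 counts. The number of cells and the RNA per cell both enter these sums, and they are separated in the next paragraphs. In all, 6 of the 7 members were at least 4-fold higher in TripleTg and 0 were at least 4-fold lower. Of 9475 genes with at least 5 CPM in either library, 389 (4.11%) were at least 4-fold higher and 272 (2.87%) at least 4-fold lower. Since the genes were picked with results of these libraries known, nothing was read from that difference.

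**Figure D1:**
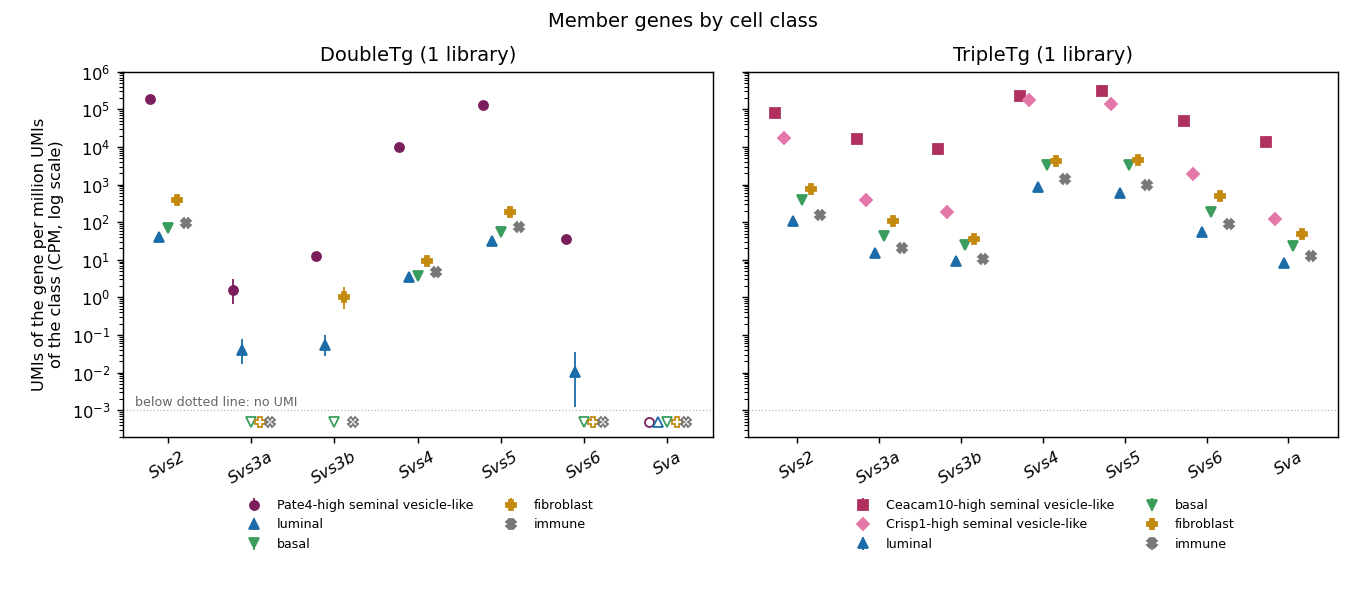
Level of each member, in UMIs per 1000000 UMIs of the class on a log scale, in the seminal vesicle-like clusters and in luminal-like, basal-like, fibroblast-like and immune-like cells of each library. Bars are exact Poisson 95% intervals, often smaller than the symbols, and open symbols below the dotted line had no UMI. The seminal vesicle-like clusters lie above every other class for each member that was detected, and in DoubleTg Svs3a, Svs3b, Svs6 and Sva lie at or below 36.4 CPM in every class.

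The source cells were found by clustering each library with the members left out of the genes used, so that the clusters did not depend on them directly. In DoubleTg 1 cluster of 96 cells (0.906% of cells) was named seminal vesicle-like from 3 raised markers, and it is called Pate4-high here after its leading gene, which encodes a small seminal vesicle protein that acts on sperm. Svs1 and Hoxa11, which are also on the marker list, were at 0 in it. The cluster held 96.4% of all member UMIs, at a median depth of 50978 UMIs per cell. Svs2 took 191043 CPM (190664 to 191422), Svs5 129840 CPM (129527 to 130152) and Svs4 10283 CPM (10196 to 10372). Members made up 32.7% of the UMIs of the median cell. Below these 3 genes the levels dropped steeply, to 36.4 CPM (31.4 to 42.0) for Svs6, 12.7 CPM (9.82 to 16.2) for Svs3b and 1.57 CPM (0.676 to 3.08) for Svs3a. Sva had 0 of 5110279 UMIs (up to 0.722 CPM), and its interval overlapped that of Svs3a, the only neighbours in this order whose intervals did so.

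The Pate4-high cells were far from uniform. The CPM of Svs2 per cell had a 5th percentile of 832, a median of 188303 and a 95th percentile of 305281, and that of Svs5 ran from 349 through 128635 to 240777 at the same percentiles. Svs4 ran from 31.8 through 4815 to 38014. In 13 of the 96 cells members made up under 1% of the UMIs. Svs3b and Svs3a came from a single Pate4-high cell with 65 and 8 UMIs, which had 3366 UMIs of Pate4 but 1 UMI of Svs2 and 0 of Svs4 and Svs5. Outside the cluster, 1 luminal-like cell had 8 UMIs of each and 1 fibroblast-like cell had 10 UMIs of Svs3b. The DoubleTg Svs3a and Svs3b RNA thus lay in 6 cells in all.

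In TripleTg 2 clusters were named seminal vesicle-like, from 5 raised markers each. The Ceacam10-high cluster, named after a secreted protein that binds sperm, held 106 cells (1.12%) at a median of 63850.5 UMIs per cell, and the Crisp1-high cluster, named after a sperm-binding protein best known from the epididymis, held 448 cells (4.72%) at a median of 38507.5 UMIs. Crisp1 was not particular to the Crisp1-high cluster, as it also stood at 1258 CPM in DoubleTg Pate4-high cells. In Ceacam10-high cells members made up 71.2% of the UMIs of the median cell. Svs5 took 312612 CPM, Svs4 227081 CPM and Svs2 79239 CPM. Svs6 followed at 49045 CPM, Svs3a at 16480 CPM, Sva at 13734 CPM and Svs3b at 8587 CPM. The intervals of neighbours in this order did not overlap, the closest being Sva at 13645 to 13824 CPM.

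Crisp1-high cells held the same 3 leading genes and little of the other members. Svs4 took 181620 CPM, Svs5 137718 CPM and Svs2 17591 CPM, and members made up 31.1% of the UMIs of the median cell. Svs6 stood at 1959 CPM, Svs3a at 393 CPM, Svs3b at 182 CPM and Sva at 121 CPM. None of these intervals reached those of the Ceacam10-high cells. In the median Crisp1-high cell Svs6 stood at 302 CPM, and Svs3a, Svs3b and Sva stood at 0 CPM. The order of the levels also differed, with Svs4 first here, Svs5 first in Ceacam10-high cells and Svs2 first in the DoubleTg cells. Because of its size the Crisp1-high cluster held 56.1% of all TripleTg member UMIs and 66.7% of those of Svs4. The 106 Ceacam10-high cells held 94.4% of the Sva UMIs, 89.5% of Svs3b, 88.8% of Svs3a and 83.9% of Svs6, but only 27.5% of Svs4.

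**Figure D2:**
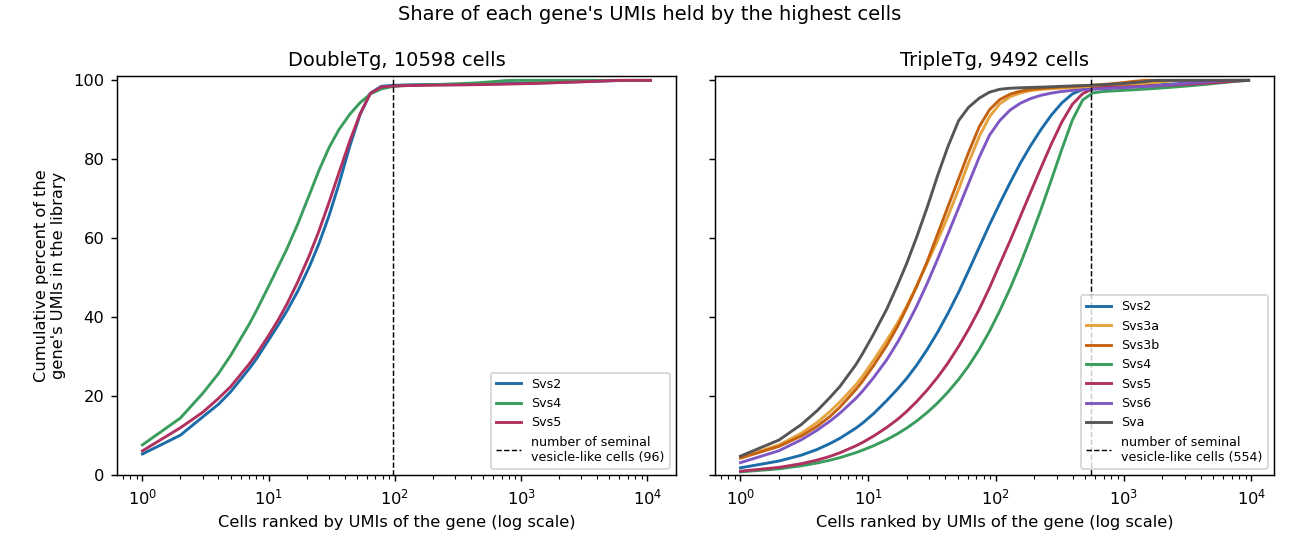
Cumulative percent of each gene's UMIs in a library (y axis) against cells ranked from the highest count of that gene (x axis, log scale), for Svs2, Svs4 and Svs5 in DoubleTg and for all 7 members in TripleTg. The dashed line marks the number of seminal vesicle-like cells, 96 and 554. In DoubleTg the 3 curves rise together, while in TripleTg the curve of Sva reaches 90% by 52 cells and that of Svs4 by 398 cells.

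Few cells carried most of the RNA. In DoubleTg 53 cells held 90% of the member UMIs and in TripleTg 372 cells did. For single genes in TripleTg this number was 52 cells for Sva, 79 for Svs3b, 86 for Svs3a, 109 for Svs6, 255 for Svs2, 335 for Svs5 and 398 for Svs4. The highest single cell had 53724 UMIs of Svs2 in DoubleTg and 50004 UMIs of Svs5 in TripleTg.

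Co-expression was counted cell by cell. A cell was called high for a gene with at least 5 UMIs of it and at least 10 times the CPM of immune-like cells of the same library, which should lack the gene. Svs2, Svs4 and Svs5 formed the common set. In DoubleTg 69 of 96 Pate4-high cells (71.9%) were high for these 3 genes and no other, and 9 (9.38%) were also high for Svs6. In Crisp1-high cells 224 of 448 (50%) were high for the same 3 alone, and 141 (31.5%) were high for 4 or more. Of the 106 Ceacam10-high cells, 88 (83.0%) were high for all 7 members and every cell was high for at least 4. Over both TripleTg clusters 44.6% (40.4 to 48.8) of cells were high for 4 or more members, against 9.38% (4.38 to 17.1) in DoubleTg. The cutoffs differed greatly, at 2.76 CPM of Svs6 and 47.0 CPM of Svs4 in DoubleTg but 895 and 13670 CPM in TripleTg. The median Crisp1-high cell had 302 CPM of Svs6, between the 2 cutoffs, so these shares are not comparable between libraries. After thinning of each cell to 5000 UMIs the DoubleTg share was 1.15%.

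In the Crisp1-high cluster most cells that were high for a less common member were also high for the common ones. So were most cells of the cluster as a whole. Of all 448 cells, 440 were high for Svs4, 426 for Svs5 and 374 for Svs2, so much of the overlap below is that of any cell there. All 74 Crisp1-high cells that were high for Svs3a were also high for Svs2, Svs4 and Svs5, as were all 61 that were high for Svs3b. Of the 139 cells that were high for Svs6, all were high for Svs4 and Svs5 and 126 (90.6%) for Svs2. Svs3a and Svs3b were high together in 39 cells, which is 52.7% of the Svs3a cells and 63.9% of the Svs3b cells. Sva was high in 11 of the 448 cells.

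Levels were then related across the cells of each cluster by Spearman coefficients, with the gene counted per UMI of all non-member genes. These describe cells of 1 library, which share their depth and background. Counts per all UMIs push abundant genes apart because members take so large a share. Counts per non-member UMI share a denominator that can pull all pairs together. In Ceacam10-high cells every pair was higher on that scale than as CPM, such as Svs2 and Svs4 at 0.66 and 0.14. In DoubleTg Svs2 and Svs5 rose together across the 96 cells (rho 0.93, or 0.84 as CPM). Svs4 followed neither, with 0.07 against Svs2 and −0.01 against Svs5. In Crisp1-high cells the closest pair was Svs4 and Svs5 (0.86, or 0.72 as CPM), followed by Svs5 and Svs6 (0.77). Svs3a and Svs3b had 0.52 there. In Ceacam10-high cells the closest pair was Svs3a and Svs3b (0.87, or 0.77 as CPM). Svs4 and Svs5 had 0.53 in these cells, but −0.23 as CPM and −0.40 after thinning, so the sign depended on the denominator. Svs5 and Svs6 had 0.80 in Ceacam10-high cells, or 0.45 as CPM, beside 0.82 for Svs3b and Svs6 and 0.81 for Svs3a and Svs6. In DoubleTg Svs5 stood at 129840 CPM and Svs6 at 36.4 CPM. Whether likeness of the promoter letters bears on any of these values was not tested.

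**Figure D3:**
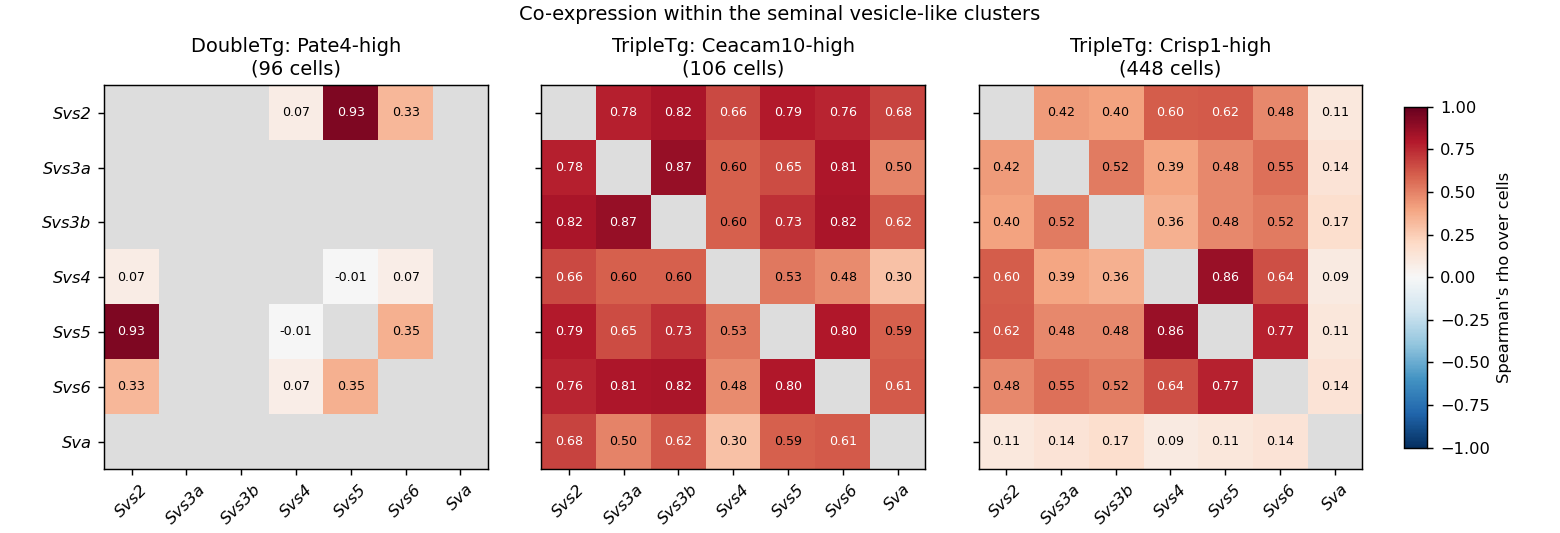
Spearman's rho between members across the cells of each seminal vesicle-like cluster, on UMIs of the gene per UMI of non-member genes, from −1 (blue) to 1 (red). Grey marks the diagonal and genes with fewer than 5 high cells. Svs2 and Svs5 reach 0.93 in DoubleTg with Svs4 near 0, and in Ceacam10-high cells the coefficients lie between 0.30 and 0.87. As CPM, not shown, the Ceacam10-high coefficients lie between −0.23 and 0.77.

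Within the Pate4-high cluster Svs2 and Svs5 were lower in the cells that had Crisp1. The 27 cells with a Crisp1 UMI stood at 47097 CPM of Svs2 and 24248 CPM of Svs5, and the 69 cells without one at 230951 CPM and 159114 CPM. Svs4 did not share this split, at 11914 CPM with and 9831 CPM without Crisp1. The members made up 1.78% of the UMIs of the median cell with Crisp1 and 39.6% of the median cell without, at median depths of 34559 and 55316 UMIs. In the TripleTg Crisp1-high cluster 333 cells had a Crisp1 UMI and 115 had none, and Svs5 (138190 and 135759 CPM) and Svs4 (180489 and 186313 CPM) differed little between them. Svs2 stood at 18495 CPM with and 13839 CPM without Crisp1 over the pooled cells, and at 12882 and 5170 CPM in the median cell. Svs3a (338 and 620 CPM) and Sva (92.5 and 239 CPM) were lower in the pooled cells with Crisp1. In the median cell both genes stood at 0 CPM with and without Crisp1. In a split by the MET transgene, 38 DoubleTg cells with an hMETtg UMI stood at 131855 CPM of Svs2 and 58 cells without at 235956 CPM. This contrast is of the kind that led to the choice of Svs2 and Svs5, and it is given as a description. The cells with an hMETtg UMI also held more non-member UMIs, with a median of 43387.5 against 24853, and hMETtg stood at 118 CPM both in Pate4-high and in DoubleTg immune-like cells. Across the 388 Crisp1-high cells with an hMETtg UMI and the 60 without, Svs4 (181380 and 184810 CPM), Svs5 (137814 and 136438 CPM) and Svs2 (17639 and 16958 CPM) differed little when pooled. The less common members were lower in the pooled cells with hMETtg. Svs6 stood at 1795 and 4135 CPM, Svs3a at 334 and 1169 CPM, Svs3b at 157 and 514 CPM and Sva at 87.9 and 559 CPM. In the median cell Svs6 stood at 296 and 408 CPM, Svs3a at 0 and 9.36 CPM, and Svs3b and Sva at 0 CPM in both groups. There too the cells with hMETtg held more non-member UMIs, with a median of 27063.5 against 14491.

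Genes that followed the members were ranked by the correlation of log2(CPM + 1) over clusters of at least 50 cells, a description over 23 DoubleTg and 24 TripleTg clusters that rests on the 1 or 2 source clusters. In DoubleTg the 10 closest were Pate4 (r 0.98), Crisp1 (0.89), Cyp4a12a (0.88), Gm17689, Defb42, Elf5, Akr1b7, Bpgm, Ptgds and Ppp2r2b. In TripleTg they were Pate4 (0.98), A630095E13Rik (0.96), 9530003J23Rik (0.94), Spinkl, Ceacam10, Dnase2b, Smpx, Gm5420, Svs1 and Spink1. Pate4 was the only gene in both lists. Defb42 is a β-defensin, a class of antimicrobial peptides of the male tract, and Elf5 is an epithelial transcription factor.

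Other secretory genes of the gland also differed between the clusters, but not all in the same order as the members. Pate4 was high in all source clusters, at 34639 CPM in Pate4-high, 18619 CPM in Ceacam10-high and 15923 CPM in Crisp1-high cells, against 9.74 and 31.7 CPM in luminal-like cells of DoubleTg and TripleTg. Ceacam10 stood at 21767 CPM in Ceacam10-high and 453 CPM in Crisp1-high cells but at 1.37 CPM in Pate4-high cells. Svs1, an amine oxidase-like protein of the plug, stood at 3507, 55.2 and 0 CPM in the same order, and Spinkl, a protease inhibitor-like protein, at 5718, 260.2 and 12.5 CPM. Pate4, Ceacam10, Svs1 and Spinkl were among the markers that named the clusters, so their presence is no finding. Both TripleTg clusters were labelled by their Ceacam10 level, so its order between them was fixed by the labels. Serpine2, a protease inhibitor that was no marker, stood at 1124 CPM in Pate4-high, 271 CPM in Ceacam10-high and 757 CPM in Crisp1-high cells, against 144 and 15.8 CPM in luminal-like cells. Sval1, Sval3 and Pip, relatives of Sva, were at 0 CPM in all 3 clusters, and Sval2 reached 4.81 CPM in Ceacam10-high cells. In TripleTg Spink1 stood at 4308 CPM in Ceacam10-high cells but at 62.5 CPM in Crisp1-high and 4.75 CPM in luminal-like cells. In DoubleTg it stood at 154 CPM in Pate4-high and 17829 CPM in luminal-like cells.

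Of the plug genes outside the family, Tgm4, the prostate transglutaminase that links Svs2, stood at 63.8 CPM in Pate4-high and 1307 CPM in luminal-like DoubleTg cells, and at 10.7, 9.26 and 146 CPM in the Ceacam10-high, Crisp1-high and luminal-like TripleTg cells. The urokinase gene Plau was higher in source cells than in luminal-like cells of DoubleTg, at 224 and 9.58 CPM. Klk1 was at or below 0.05 CPM in every source cluster.

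Transcription factors of the Wolffian duct and of the urogenital sinus were set beside the luminal-like cells. Pax2, a Wolffian duct factor used as a marker, stood at 4.31, 1.65 and 4.61 CPM in Pate4-high, Ceacam10-high and Crisp1-high cells and at 0.0454 and 0.0202 CPM in luminal-like cells of DoubleTg and TripleTg. Hoxd9 stood at 16.2, 3.31 and 7.97 CPM against 0.192 and 0.101 CPM, and Emx2 at 6.26, 0.901 and 8.96 CPM against 0.177 and 0.047 CPM. Not every gene of the Wolffian list followed. Hoxa9, Hoxa10, Hoxa11 and Hoxd11 were lower in all 3 source clusters than in luminal-like cells of the same library, and Pax8 stood at 0.587 CPM or less. Gata3 was lower in both TripleTg clusters, while in Pate4-high cells its order turned with the denominator, at 54.4 against 73.9 CPM but at 81.3 against 73.9 per 1000000 non-member UMIs. The urogenital sinus factor Hoxb13 stood at 4.11, 0.901 and 1.54 CPM against 126 and 18.4 CPM in luminal-like cells. Foxa1 was present in all, at 40.9, 10.97 and 40.2 CPM against 117 and 63.2 CPM.

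Members took up so much of each source cell that other genes read low as CPM. Of the Wnt targets, which respond to stabilised β-catenin, Axin2 stood at 83.5 CPM in TripleTg luminal-like cells but at 3.004 CPM in Ceacam10-high and 10.3 CPM in Crisp1-high cells, and at 3.52 CPM in DoubleTg Pate4-high cells. Per 1000000 non-member UMIs these levels of Axin2 were 83.6, 10.2, 15.6 and 5.27. Nkd1 stood at 62.1 CPM in TripleTg luminal-like cells and at 15.5 and 10.55 CPM in the Ceacam10-high and Crisp1-high clusters, or at 62.2, 52.8 and 15.97 per 1000000 non-member UMIs, so for Nkd1 the Ceacam10-high cells came close to the luminal-like ones on that scale. Immune-like cells of TripleTg, which should lack a Cre-dependent response, had 25.3 CPM of Axin2. The transgene hMETtg stood at 118 CPM in Pate4-high and 171 CPM in Crisp1-high cells but at 2.85 CPM in Ceacam10-high cells, against 118 and 8.76 CPM in immune-like cells of DoubleTg and TripleTg. Per 1000000 non-member UMIs these levels were 176 in Pate4-high, 259 in Crisp1-high and 9.73 in Ceacam10-high cells against 118 and 8.78, so in Ceacam10-high cells the transgene stood near the level of immune-like cells on that scale.

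Genes around the chromosome 2 locus were checked for a shared pattern. Of 22 other annotated genes within 200 kb of a member there, 20 were in the files. The mark was at least 5 CPM in a source cluster and at least 4-fold above all other cells. Wfdc15b, which encodes a WAP-domain protein and neighbours Svs2, was the only gene to pass it in all 3 source clusters. It stood at 784 CPM in Pate4-high, 195 CPM in Ceacam10-high and 1102 CPM in Crisp1-high cells. Slpi, a protease inhibitor next to Svs5, passed this mark in DoubleTg alone, at 120 CPM against 3.84 CPM in all other cells. Wfdc12 fell just short of 4-fold in Pate4-high cells, at 11.9 against 3.20 CPM, on a scale where non-member genes read low in source cells. The share of all genes that pass the same mark was not taken, so nothing was read from these counts about the locus.

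UMIs of the members were found in nearly every kind of cell. In immune-like cells, which should make none, the members were detected in 72.7% of 1033 DoubleTg cells at a median of 7505 UMIs and in 100% of 624 TripleTg cells at a median of 9269.5 UMIs. At 5000 UMIs per cell these shares were 52.2% (48.6 to 55.9, 745 cells) and 99.8% (98.9 to 100, 505 cells). The amounts were small in DoubleTg, with 0.983 UMIs of Svs2, 0.795 of Svs5 and 0.0494 of Svs4 per immune-like cell, and 0 UMIs of Svs3a, Svs3b, Svs6 and Sva. In TripleTg there were 16.3 UMIs of Svs4, 11.5 of Svs5, 1.87 of Svs2, 1.06 of Svs6, 0.244 of Svs3a, 0.154 of Sva and 0.127 of Svs3b per cell. Shares of cells with a UMI at or near these are background, so the 99.7% of all TripleTg cells with an Svs4 UMI does not count cells that express the gene.

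The background followed the library total of each gene. For each 1000000 UMIs of a gene in the DoubleTg library an immune-like cell held 0.974 (0.915 to 1.04) UMIs of Svs2, 1.15 (1.07 to 1.23) of Svs5 and 0.915 (0.681 to 1.20) of Svs4. In TripleTg the same quantity was 2.02 for Svs2, 1.97 for Svs3a, 1.98 for Svs3b, 2.23 for Svs5, 1.59 for Sva, 2.73 for Svs6 and 2.96 (2.90 to 3.02) for Svs4. In TripleTg 4 immune-like cells had over 200 member UMIs each (241 to 1829), and without them, a choice made after seeing the data, the values ran from 1.58 for Sva to 2.50 for Svs4. In DoubleTg the same quantity was 11.6 for Spink1, 11.8 for Msmb, 12.1 for Pbsn and 12.4 for Sbp, secretory genes of the prostate. Their counts were far more uneven over the immune-like cells, with a variance over the mean of 468 to 27523 against 1.15 to 2.89 for Svs4, Svs5 and Svs2, and whether these values rest on few cells was not tested. The count per cell rose with the depth of the cell, but less than the depth did. Over 5 equal bins of DoubleTg immune-like cells, from a median of 1032 to 20252 UMIs, Svs2 went from 0.744 (0.631 to 0.871) to 1.16 (1.02 to 1.32) UMIs per cell, while its CPM fell from 526 to 43.1. In TripleTg immune-like cells, over bins with medians of 1913 to 23545 UMIs, Svs4 went from 10.6 in the shallowest through 21.2 in the fourth to 19.9 UMIs per cell in the deepest bin, and its CPM fell from 4488 to 727. Without the 4 cells with over 200 member UMIs, Svs4 went from 9.77 to 19.9 UMIs per cell.

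**Figure D4:**
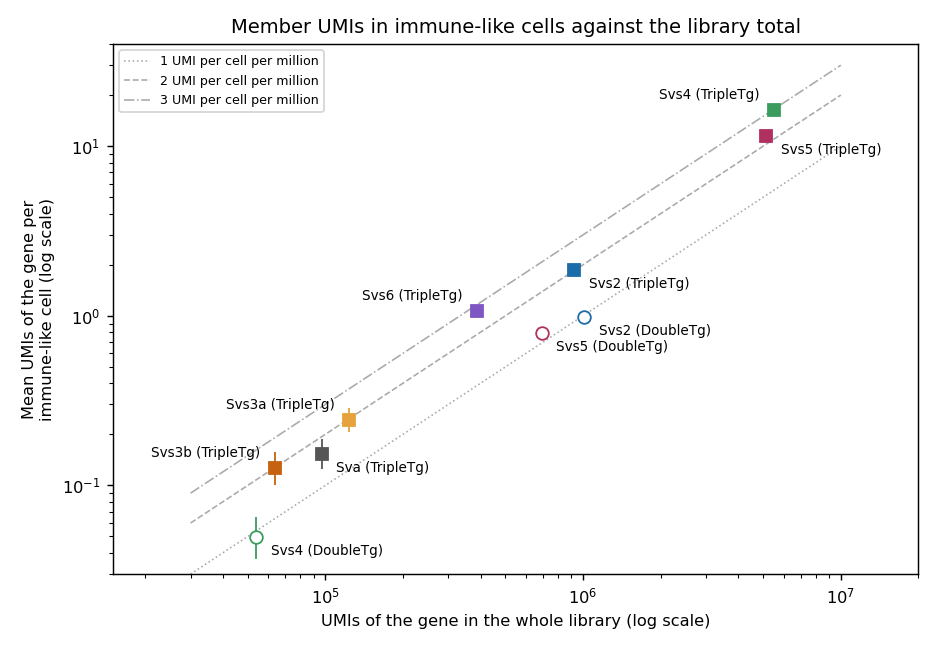
Mean UMIs of each member per immune-like cell (y axis, log scale) against the UMIs of that gene in the whole library (x axis, log scale). Bars are exact Poisson 95% intervals, open circles are DoubleTg, filled squares are TripleTg and grey lines mark 1, 2 and 3 UMIs per cell for each 1000000 UMIs in the library. DoubleTg genes lie along the line at 1 and TripleTg genes between 1.59 and 2.96.

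Outside the source clusters the proportions of the members were near those of the source. In DoubleTg Svs2, Svs5 and Svs4 made up 57.7%, 39.2% and 3.10% of the member UMIs of Pate4-high cells and 53.8%, 43.5% and 2.70% of those of immune-like cells. In TripleTg immune-like cells Svs4 made up 52.1%, Svs5 36.8%, Svs2 6.003% and Svs6 3.41%, which lay between the Ceacam10-high cells (32.1%, 44.2%, 11.2% and 6.94%) and the Crisp1-high cells (53.5%, 40.6%, 5.18% and 0.577%) except for the lower Svs5. Luminal-like cells, the bulk of the tumour, stood at 40.1 CPM of Svs2 and 31.1 CPM of Svs5 in DoubleTg and at 843 CPM of Svs4 and 584 CPM of Svs5 in TripleTg. These CPM were below those of the immune-like cells, at 93.5 and 75.6 CPM and at 1367 and 964 CPM, but luminal-like cells were deeper, with medians of 35573 and 25606.5 UMIs, and per cell the order turned. Luminal-like cells held 1.59 UMIs of Svs2, 1.23 of Svs5 and 0.139 of Svs4 in DoubleTg, and 25.7 UMIs of Svs4 and 17.8 of Svs5 in TripleTg. Whether luminal-like cells expressed any of the members was not tested.

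**Figure D5:**
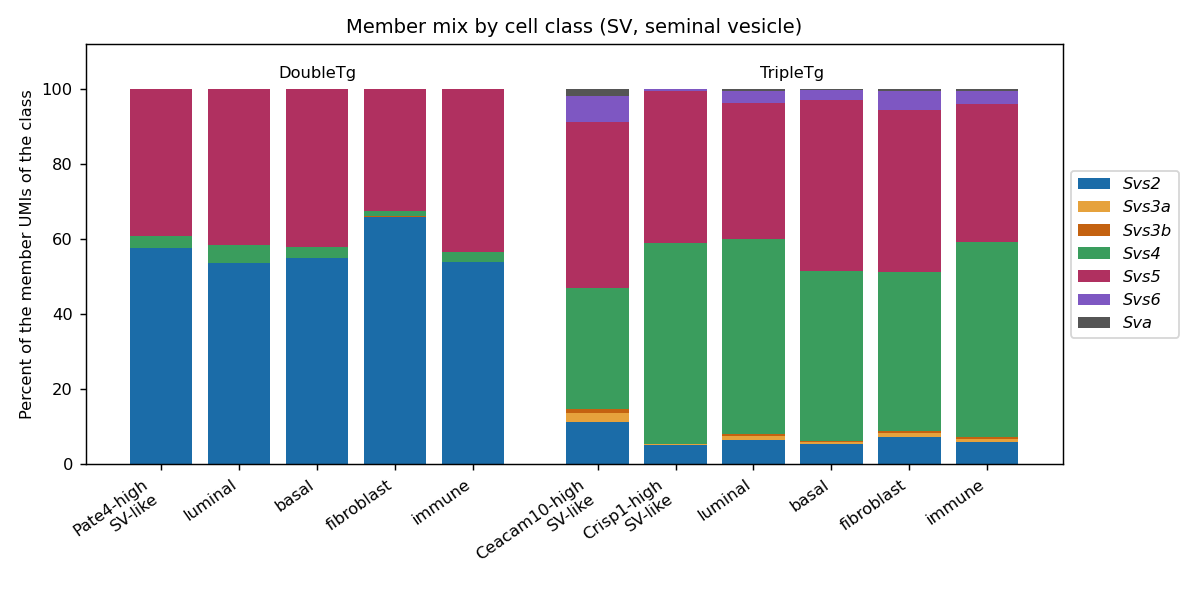
Percent of the member UMIs of each cell class that came from each member, in DoubleTg (left) and TripleTg (right). DoubleTg classes are Svs2 and Svs5 with a narrow band of Svs4, and TripleTg classes outside the seminal vesicle-like clusters hold 36.04% to 45.6% of Svs5 and 42.4% to 52.1% of Svs4.

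Some cells outside the source clusters held more than background. Members made up at least 10% of the UMIs in 25 other DoubleTg cells, 24 of them in unnamed clusters with a median of 641 UMIs, and in 93 other TripleTg cells, 72 unnamed, 11 basal-like and 5 luminal-like. They held 2.20% and 2.84% of all member UMIs. Whether these were doublets, damaged source cells or droplets with much free RNA was not tested. The 1474 DoubleTg cells outside the limits on genes and mitochondrial UMIs held 15.4% of the deposited member UMIs, with 34.7% of those of Svs4 but 15.7% of Svs2 and 12.9% of Svs5, so the DoubleTg level of Svs4 depended most on these limits.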

How the data were processed

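Dissociated prostate tumour tissue of each genotype gave 1 droplet library (10x, 3′ end). The deposited matrices hold raw UMI counts, which the authors made with Cell Ranger on mm10 with the hHGFtg and hMETtg sequences added. The submitters' processing notes name Cell Ranger 6.0.2, and the header of the DoubleTg matrix names 6.1.1. The DoubleTg matrix held 12072 cells, of which 10598 met the limits on genes and mitochondrial UMIs, while all 9492 TripleTg cells met them. Columns of samples outside these 2 libraries numbered 0.

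Each library was clustered with scanpy 1.11.5 (counts per 10000, 2000 variable genes without the members, 20 principal components, 15 neighbours, Leiden resolution 1). Clusters were named from fixed markers, but the naming thresholds were changed once the clusters were known. Doublets were kept, and Scrublet was run as an alternative. Levels are UMIs per 1000000 UMIs of a class, with exact Poisson intervals. Shares have exact binomial (Clopper-Pearson) intervals and ratios conditional binomial ones. Cells were thinned to 5000 UMIs where shares were compared across depths. Scripts were tested on simulated data. With 1 library per genotype no test was run, and edgeR 4.0.16 (R 4.3.3) gave TMM factors for an alternative scaling only.

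The members and gene lists were chosen with earlier results of these data known. Named genes are the members, fixed lists of seminal vesicle, plug, Wolffian duct, urogenital sinus, prostate and Wnt genes, the transgenes, genes within 200 kb of the locus, and the 10 genes closest to the member sum over clusters in each library. Crisp1 as a term of the split within clusters was chosen after its values were seen. Promoters are RefSeq's for GRCm38.p6, and TATAAA was searched on the gene's strand and the hexamer on both. Some listed genes are not reported here.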

Additional observations from a re-analysis of the deposited data

How the results depend on the processing

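The seminal vesicle-like DoubleTg cells held 96.4% of the member UMIs. This share was 96.5% at resolution 0.5, 98.4% at resolution 2, 96.46% without Scrublet doublets, 98.4% over all deposited cells, 92.8% with cells thinned to 5000 UMIs and 98.6% when other cells over 10% member UMIs were left out, a choice made after seeing the data. In TripleTg the share of 94.5% became 93.1% and 93.9% at these resolutions, 94.003% with members among the variable genes, 90.9% thinned and 97.3% without such cells. The summed member level of 331216 CPM in DoubleTg became 294841 and 329712 CPM at the same resolutions, 292457 CPM over all deposited cells and 303343 CPM thinned. That of 430622 CPM in TripleTg became 436339, 430903, 436954 (members among the variable genes) and 388610 CPM (thinned).

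The share of immune-like cells with a member UMI, 52.2% in DoubleTg at 5000 UMIs, was 72.7% with all UMIs and 30.5% at 2000 UMIs. In TripleTg 99.8% became 100% with all UMIs and at resolution 0.5, and 96.6% at 2000 UMIs. The share of source cells high for 4 or more members was 1.15% after thinning against 9.38% in DoubleTg, and 60.3% at 3 times and 32.5% at 30 times the immune-like level against 44.6% in TripleTg. Without the filter on low values 1516 and 912 genes passed 4-fold higher and lower, against 389 and 272.

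With members among the variable genes no DoubleTg cluster reached 3 raised markers, so that setting gave no value. Scrublet called 0 TripleTg cells and was not used there. None of the library ratios recomputed in this way reversed. Levels and shares have no sign, so no reversal was defined for them. The correlation of Svs4 with Svs5 in Ceacam10-high cells changed sign with the denominator, as the report gives. Of the values for single members, 85 moved by more than counting error and 68 did not. The 68 include values that could not move. These are the TripleTg values over all deposited cells, since all 9492 cells met the limits, and the ratios without the filter on low values. No paired analysis was possible because each genotype has 1 library. No replicate error can be given, and the spread between animals is unknown.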
